A study of Mus musculus with 20 samples.

Results

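The 31 genes described here make cholesterol and fatty acids, control that synthesis or move sterols. They were taken by symbol from a table of 25719 mouse genes, and all 31 passed the filter on low counts that left 12424 genes for testing. They fall into 5 roles: 8 genes of the mevalonate arm, from acetyl-CoA to squalene, 10 of the sterol arm, from squalene to cholesterol, 5 that control the SREBP transcription factors, 3 of sterol transport and 5 of fatty acid synthesis. The rule names gene symbols and uses no measured value, though the list was proposed with earlier results of these data known.

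RNA was sequenced in bulk from keratinocytes that had been isolated from ear and back skin and enriched by flow cytometry, with 5 mice in each of 4 groups. Conditional knockout mice (cKO) carried K14-CreERTam, a Cre recombinase that tamoxifen activates and that the keratin 14 promoter drives in basal keratinocytes, together with Cyp11b1 L2/L2, in which the gene of an enzyme that makes glucocorticoids is floxed. Controls were littermates with Cyp11b1 L2/L2 and no Cre. Mice of both genotypes received tamoxifen on each of 5 days, either on shaved back and ear skin in ethanol (topical) or into the peritoneum in oil and ethanol (systemic), and cells were taken on day 6. The groups are named here topical control, topical cKO, systemic control and systemic cKO, and mice carry the numbers of their labels. The mice were group-housed, and their strain background and age are not given in the sources used here. The volumes were 20 µl on ear and 100 µl on back skin (topical) or 100 µl at 10 mg/ml (systemic). All 20 mice thus received tamoxifen. Because the routes also differed in volume applied, solvent and shaving, these cannot be told apart from the route.

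Cholesterol is built from acetyl-CoA through mevalonate, isoprenoids, squalene and lanosterol. When sterols in the endoplasmic reticulum are low, SCAP carries SREBP proteins to the Golgi for cleavage, and the freed factors switch on genes of sterol and fatty acid synthesis. When sterols are high, INSIG proteins hold SCAP back, and oxysterols activate the LXR receptors, which switch on the cholesterol exporters Abca1 and Abcg1. Epidermal keratinocytes use these pathways to supply the cholesterol, fatty acids and ceramides of the skin barrier, and sebaceous gland cells use them to make sebum.

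The bases before the transcription start are shown for 4 members because many of the sterol genes varied together between mice. RefSeq windows (GRCm38.p6) were found for 25 of the 31 members, and the 250 bases before the start were searched on both strands. Hmgcs1 (chr13:119690101-119690350, plus strand) was chosen for its match to the sterol regulatory element, Mvk (chr5:114444019-114444268, plus strand) and Nsdhl (chrX:72918271-72918520, plus strand) as sterol genes with CCAAT boxes, and Abca1 (chr4:53159896-53160145, minus strand) as the exporter. Each sequence runs 5′ to 3′ toward the start, and capitals mark CCAAT or its reverse complement ATTGG and, in Hmgcs1 alone, the match to TCACNCCAC on either strand.
Hmgcs1: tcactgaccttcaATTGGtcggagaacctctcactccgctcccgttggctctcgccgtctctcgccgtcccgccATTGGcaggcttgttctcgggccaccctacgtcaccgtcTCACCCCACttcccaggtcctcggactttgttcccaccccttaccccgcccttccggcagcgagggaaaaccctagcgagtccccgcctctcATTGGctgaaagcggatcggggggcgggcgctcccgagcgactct
Mvk: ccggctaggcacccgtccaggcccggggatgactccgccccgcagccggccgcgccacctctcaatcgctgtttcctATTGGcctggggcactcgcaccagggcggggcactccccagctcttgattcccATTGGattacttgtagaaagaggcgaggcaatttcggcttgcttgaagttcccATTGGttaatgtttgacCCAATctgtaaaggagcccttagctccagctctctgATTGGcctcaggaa
Nsdhl: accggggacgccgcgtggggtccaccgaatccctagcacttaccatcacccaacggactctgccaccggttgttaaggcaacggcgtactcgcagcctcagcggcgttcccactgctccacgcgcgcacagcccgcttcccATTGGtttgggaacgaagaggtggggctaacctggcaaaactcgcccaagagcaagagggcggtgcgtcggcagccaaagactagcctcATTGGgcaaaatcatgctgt
Abca1: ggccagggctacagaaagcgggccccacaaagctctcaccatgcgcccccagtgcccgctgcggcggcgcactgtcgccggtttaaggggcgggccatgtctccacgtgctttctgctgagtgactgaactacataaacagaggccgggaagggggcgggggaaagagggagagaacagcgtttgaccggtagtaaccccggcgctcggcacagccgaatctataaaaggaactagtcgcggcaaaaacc

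The letters CCAAT, in either direction, stood in the windows of 14 of the 15 sterol synthesis genes that had one (93.3%) and of 19 of 25 members (76.0%), beside 37.5% of 27025 genes and 33.8% of 32851 windows. The sterol regulatory element TCACNCCAC was found in 1 member, Hmgcs1, and in 1.22% of genes. The GC box GGGCGG was found in 84.0% of members and 35.4% of genes, and the E-box CACGTG in 24.0% and 6.86%. Each motif was counted on its own, so matches to different motifs may share bases. A match describes letters, and no binding was measured.

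Libraries held 11.6 to 50.1 M counts (mean 20.8 ± 9.47, SD, n = 20). Reads of the targeted gene Cyp11b1 numbered 0 to 6 in a library, too few to check the deletion. Markers of keratinocytes summed to 79388 to 113265 CPM (read counts scaled to library size, with TMM factors for single members and by the library total for summed lists), whereas adipocyte markers reached 2.92 CPM in the highest library and 0 of 7 passed the filter. Markers of fibroblasts, melanocytes, immune cells and endothelium reached at most 32.0, 36.6, 32.2 and 6.6 CPM. The libraries also differed in other measures. Transcripts of 12 satellite-like predicted genes exceeded 50 CPM in 6 libraries, all 5 systemic controls (79.4 to 11674 CPM) and systemic cKO 2 (37287 CPM), against 0.839 to 42.5 CPM in the other 14. The 8 sebaceous gland markers summed to 834 to 3521 CPM, with group medians of 1716 in topical control, 1545 in topical cKO, 1524 in systemic control and 1674 in systemic cKO. Krt79, a keratin also made in the upper hair follicle, held most of this sum (mean 1628 CPM). The other 7, among them the lipid genes Far2, Elovl3 and Scd3, summed to 13.0 to 321 CPM, with medians of 141, 129, 55.0 and 79.1 in the same order, and leaving out Krt79 was a choice made after the data were seen. Y-linked transcripts exceeded 5 CPM in 3, 2, 3 and 2 of 5 libraries in the same order.

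Per kilobase of exon, the levels of the members spanned the range from Hmgcs1, the synthase that makes the precursor of mevalonate, at 117 CPM per kb as the mean over 20 libraries, to the acetyl-CoA carboxylase Acaca at 0.493. Next after Hmgcs1 came Fdps, which makes farnesyl diphosphate, at 60.3, the citrate lyase Acly at 45.2, Srebf1 at 33.8 and the squalene synthase Fdft1 at 31.3 CPM per kb. The SREBP genes were not alike, since Srebf2, whose product acts mainly on sterol genes, stood at 12.2 CPM per kb. Abca1 was the second lowest at 0.939 CPM per kb.

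The largest share of called members was found between the routes in control mice. Systemic controls had lower levels than topical controls for 12 of the 31 genes, among them 5 of 8 of the mevalonate arm and 3 of 10 of the sterol arm, and higher levels for 1, Abca1. Of all genes tested, 18.3% were called in this comparison, 8.16% lower and 10.2% higher, at an adjusted p under 0.05 in edgeR's quasi-likelihood test with Benjamini-Hochberg adjustment. The median log2 fold change (systemic minus topical) was -0.49 over the 31 members and 0.00081 over all genes tested, and 22 members were lower and 9 higher. The members' median became -0.084 with the log2 level of satellite-like transcripts as a covariate and 0.30 with their level over 50 CPM as one. It was -0.48 with the log2 sum of all 8 sebaceous markers as a covariate and -0.15 with that of the 7 without Krt79. The satellite-like libraries hold all of one of these groups and none of the other, so the route cannot be told apart from that feature among controls.

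**Figure D1:**
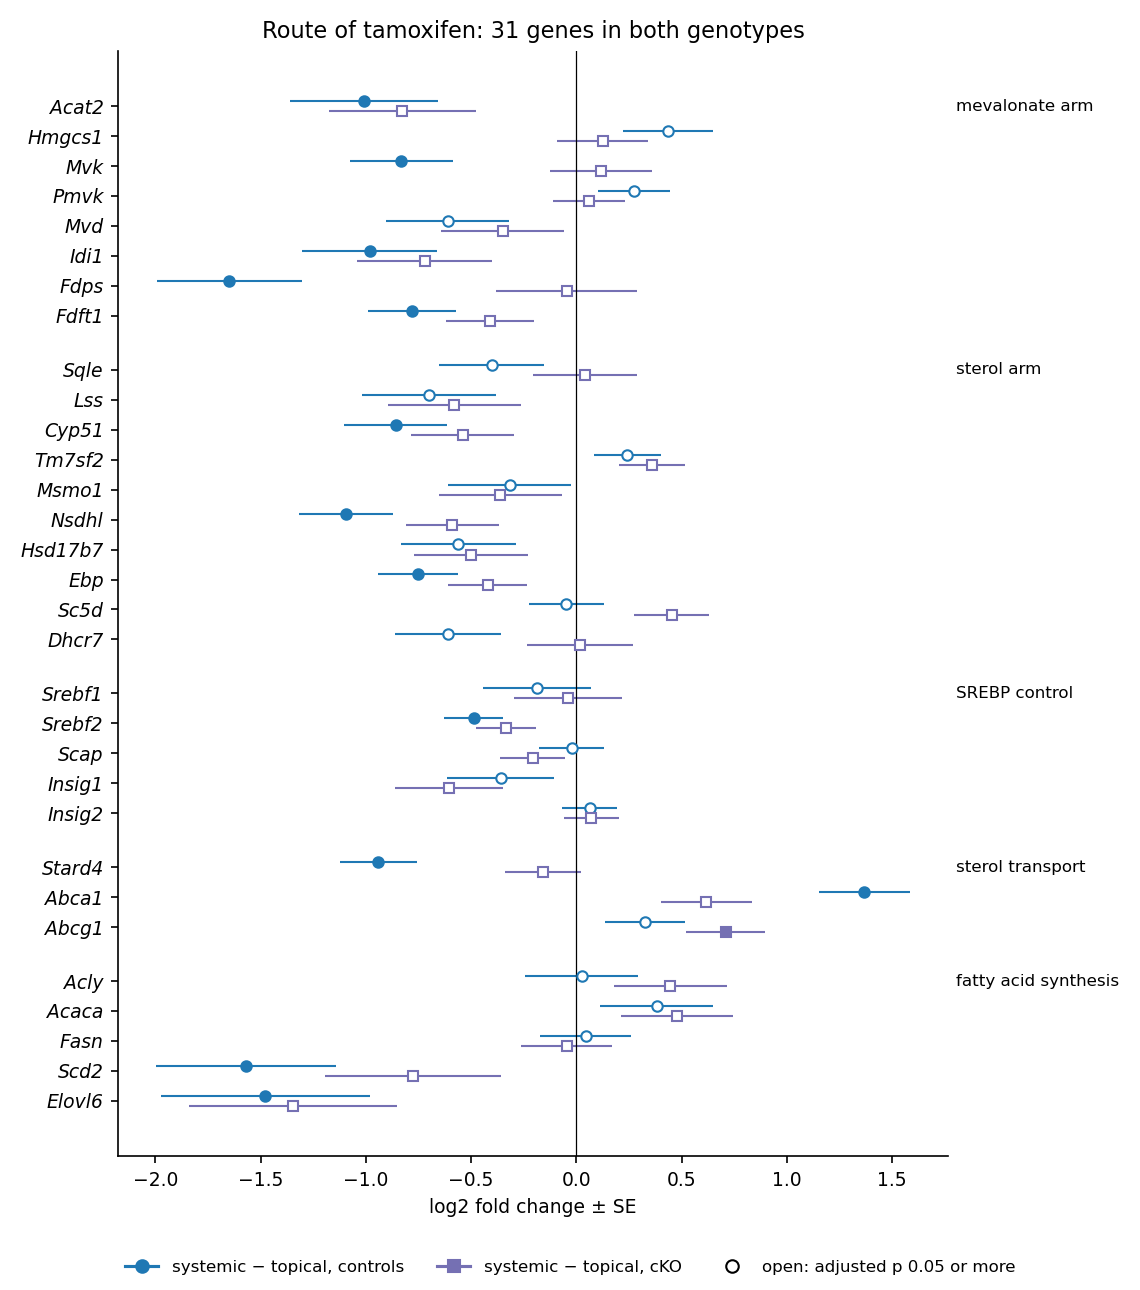
Log2 fold change of systemic against topical tamoxifen (x axis, ± SE) for each of the 31 genes (y axis, grouped by role), in controls (circles) and cKO mice (squares), 5 mice per group; filled symbols passed an adjusted p of 0.05. In controls 12 genes were called lower and Abca1 higher, and in cKO mice Abcg1 alone was called.

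In the mevalonate arm, Fdps (chromosome 3, 89093588 to 89101959, minus strand, GRCm38) changed most. Its levels were 379.8, 278, 399.9, 352 and 282 CPM in topical controls, 153, 80.3, 62.4, 134 and 109.95 in systemic controls, 317, 221, 299, 277 and 330.3 in topical cKO and 67.998, 466, 390.5, 263 and 211 in systemic cKO mice. The 5 systemic controls lay below all topical controls, and 1 systemic cKO mouse, number 2, lay among the systemic controls while the other 4 lay above every systemic control. Between the control groups this gave a difference (log2 fold change -1.65, SE 0.34, adjusted p = 0.00274). Fdps was also the one member whose 6 libraries rich in satellite-like transcripts (62.4 to 153 CPM) did not overlap the other 14 (211 to 466 CPM), a split that 2.73% of all genes showed.

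Mvk, the mevalonate kinase, stood at 76.1, 55.8, 50.6, 72.1 and 66.9 CPM in topical controls and 53.6, 25.9, 26.1, 39.96 and 35.1 in systemic controls, and the groups overlapped in part (log2 fold change -0.83, SE 0.24, adjusted p = 0.0222). Its levels were 61.7, 48.9, 54.1, 42.97 and 64.6 CPM in topical cKO and 29.3, 93.9, 70.7, 49.8 and 50.5 in systemic cKO mice, where number 2 was the lowest. Fdft1 stood at 182, 149, 218, 136 and 140.3 CPM in topical controls and, without overlap, at 113, 72.7, 80.1, 121 and 93.7 in systemic controls (log2 fold change -0.78, SE 0.21, adjusted p = 0.0133). In cKO mice Fdft1 was measured at 183, 122, 145, 150.2 and 166 CPM after topical and 79.5, 174, 127, 102 and 92.7 after systemic treatment, and these ranges overlapped.

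Idi1, the isomerase that supplies dimethylallyl diphosphate, read 30.3, 16.8, 42.5, 25.7 and 17.001 CPM in topical and 15.7, 10.7, 6.98, 14.4 and 18.8 in systemic controls, with overlap (log2 fold change -0.98, SE 0.32, adjusted p = 0.0374). In topical cKO mice it read 28.05, 16.03, 18.8, 29.7 and 24.7 CPM and in systemic cKO mice 10.8, 28.3, 10.6, 12.8 and 8.13, where number 4 stood far above the rest. The thiolase Acat2, at 36.4 to 80.3 CPM in topical and 14.02 to 38.6 in systemic controls, was called as well (log2 fold change -1.01, SE 0.35, adjusted p = 0.0488). Acat2 has a close copy, Acat3, and Idi1 has Idi2, so reads of these pairs may be shared between them.

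Hmgcs1 did not follow most of its arm. Its levels were 603, 370.1, 687, 407 and 448 CPM in topical controls, 718, 584, 671, 818 and 607 in systemic controls, 547, 369, 474, 474 and 430.1 in topical cKO and 666, 605, 373, 482 and 374 in systemic cKO mice. The systemic controls were on average the highest group, and number 2 was the highest of the systemic cKO mice, the one member of which that was true. The difference between the control groups (log2 fold change 0.43, SE 0.21, adjusted p = 0.163) did not pass. The remaining 2 genes of the arm were not called: the kinase Pmvk had a log2 fold change of 0.27 and the decarboxylase Mvd one of -0.61.

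In the sterol arm, Nsdhl, which with Msmo1 removes methyl groups from the sterol ring, stood at 28.5, 17.5, 33.8, 23.1 and 17.9 CPM in topical controls and 12.7, 9.32, 8.82, 11.7 and 13.7 in systemic controls, without overlap (log2 fold change -1.10, SE 0.22, adjusted p = 0.00232). In cKO mice it stood at 24.1, 17.9, 16.7, 24.2 and 24.4 CPM after topical and 9.34, 21.3, 14.1, 16.4 and 9.75 after systemic treatment, with overlap. The lanosterol demethylase Cyp51 read 157, 117, 234, 142 and 123 CPM in topical and 119, 67.4, 58.1, 90.5 and 91.9 in systemic controls (log2 fold change -0.86, SE 0.24, adjusted p = 0.0189). The ranges crossed at topical control 3 and systemic control 1.

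In cKO mice Cyp51 read 147, 108, 122, 159 and 152 CPM after topical and 63.5, 144, 75.4, 118 and 71.96 after systemic treatment. The sterol isomerase Ebp was measured at 38.7, 30.6, 38.5, 42.3 and 34.9 CPM in topical controls and 32.9, 14.4, 19.4, 25.1 and 18.1 in systemic controls, which overlapped (log2 fold change -0.75, SE 0.19, adjusted p = 0.00883). Ebp read 38.04, 28.5, 33.5, 32.8 and 40.4 CPM in topical cKO and 18.7, 33.1, 27.1, 29.03 and 21.01 in systemic cKO mice. Nsdhl and Ebp are both X-linked. Topical control 3 (30.6 CPM) and systemic control 1 (32.9 CPM) were the libraries whose Ebp ranges crossed.

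Sqle, the squalene epoxidase and an early control point of the arm, was not called. It stood at 174, 116, 225, 158 and 144 CPM in topical controls, 193, 89.7, 73.3, 127 and 135 in systemic controls, 164, 126, 133, 131 and 169 in topical cKO and 105, 223, 147, 162 and 106 in systemic cKO mice, all overlapping. Between the control groups it did not pass (log2 fold change -0.40, SE 0.25, adjusted p = 0.268). The other 6 genes of the arm were not called either, with log2 fold changes from -0.70 (Lss, the lanosterol synthase) to 0.24 (Tm7sf2, a sterol reductase).

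Among the genes of SREBP control, Srebf2 alone was called. It stood at 106, 114, 77.3, 86.98 and 97.1 CPM in topical controls and 73.02, 82.3, 63.1, 62.3 and 62.4 in systemic controls, which overlapped in part (log2 fold change -0.49, SE 0.14, adjusted p = 0.0201). In cKO mice Srebf2 stood at 96.2, 98.8, 106, 124 and 95.5 CPM after topical and, without overlap, at 67.03, 79.7, 86.8, 91.6 and 87.9 after systemic treatment, though this was not called (log2 fold change -0.33, SE 0.14, adjusted p = 0.15). The SE of Srebf2 was among the smallest of the 31 genes.

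Srebf1, whose product acts mainly on fatty acid genes, read 270.4, 177, 153, 146 and 173 CPM in topical controls, 216, 141, 120.4, 197 and 135 in systemic controls, 288, 156, 227, 204 and 182 in topical cKO and 146, 356, 211, 135 and 179 in systemic cKO mice. The groups overlapped throughout, and the difference between controls did not pass (log2 fold change -0.19, SE 0.26, adjusted p = 0.647). Insig1, itself a target of SREBP, read 37.7, 19.7, 37.5, 23.99 and 19.8 CPM in topical controls, 33.6, 20.5, 12.2, 15.1 and 26.5 in systemic controls, 29.2, 23.98, 18.8, 28.6 and 19.5 in topical cKO and 15.1, 17.7, 10.6, 21.6 and 14.3 in systemic cKO mice. These overlapped too (log2 fold change -0.36, SE 0.25, adjusted p = 0.343), and Insig2 and Scap had log2 fold changes of 0.064 and -0.023.

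The sterol transporters did not move one way. Abca1 (chromosome 4, 53030787 to 53159895, minus strand, GRCm38) had the smallest adjusted p of all members. It stood at 8.02, 3.94, 7.099, 7.57 and 4.47 CPM in topical controls and 17.9998, 18.9, 12.2, 12.4 and 18.1 in systemic controls, without overlap (log2 fold change 1.37, SE 0.22, adjusted p = 3.26e-04). In cKO mice it stood at 8.58, 6.63, 5.23, 8.02 and 4.36 CPM after topical and 10.6, 10.6, 7.801, 12.8 and 9.38 after systemic treatment, with overlap and without a call (log2 fold change 0.62, SE 0.22, adjusted p = 0.0785).

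Stard4, which carries cholesterol through the cytosol, went the other way: 32.4, 23.1, 37.8, 34.99 and 28.5 CPM in topical controls against 18.1, 18.3, 13.8, 14.9 and 16.4 in systemic controls, without overlap (log2 fold change -0.94, SE 0.18, adjusted p = 0.00157). Its levels in cKO mice were 18.3, 30.6, 20.998, 22.3 and 23.96 CPM after topical and 14.6, 16.4, 20.3, 31.05 and 21.6 after systemic treatment. These ranges overlapped, with a log2 fold change of -0.16.

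In fatty acid synthesis, 2 of 5 genes were called lower in systemic controls. The desaturase gene Scd2 stood at 239, 171, 295, 148 and 132 CPM in topical controls and 134, 50.96, 37.7, 52.3 and 56.9 in systemic controls, where number 1 was above all others of its group (log2 fold change -1.57, SE 0.43, adjusted p = 0.0146). In cKO mice Scd2 stood at 151, 91.7, 209.5, 105 and 288 CPM after topical and 26.3, 191, 107, 68.9 and 98.2 after systemic treatment. The elongase Elovl6 ranged from 124 to 336 CPM in topical and 24.7 to 164 in systemic controls (log2 fold change -1.48, SE 0.50, adjusted p = 0.0418), the widest SE of the 31 genes.

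The core enzyme Fasn, which makes palmitate, overlapped between all 4 groups. It read 160.5, 87.2, 123, 125 and 74.1 CPM in topical controls, 165, 105, 91.4, 107 and 119 in systemic controls, 127, 116, 112, 117 and 105 in topical cKO and 68.9, 147, 96.2, 138 and 109 in systemic cKO mice, and its log2 fold change between the control groups was 0.043 (SE 0.22). Acly and Acaca, the steps before it, had log2 fold changes of 0.026 and 0.38 and were not called. Elovl6 and Scd2, which act on the fatty acids after their synthesis, thus differed from the 3 earlier genes in being called, though no test of that difference was made.

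**Figure D2:**
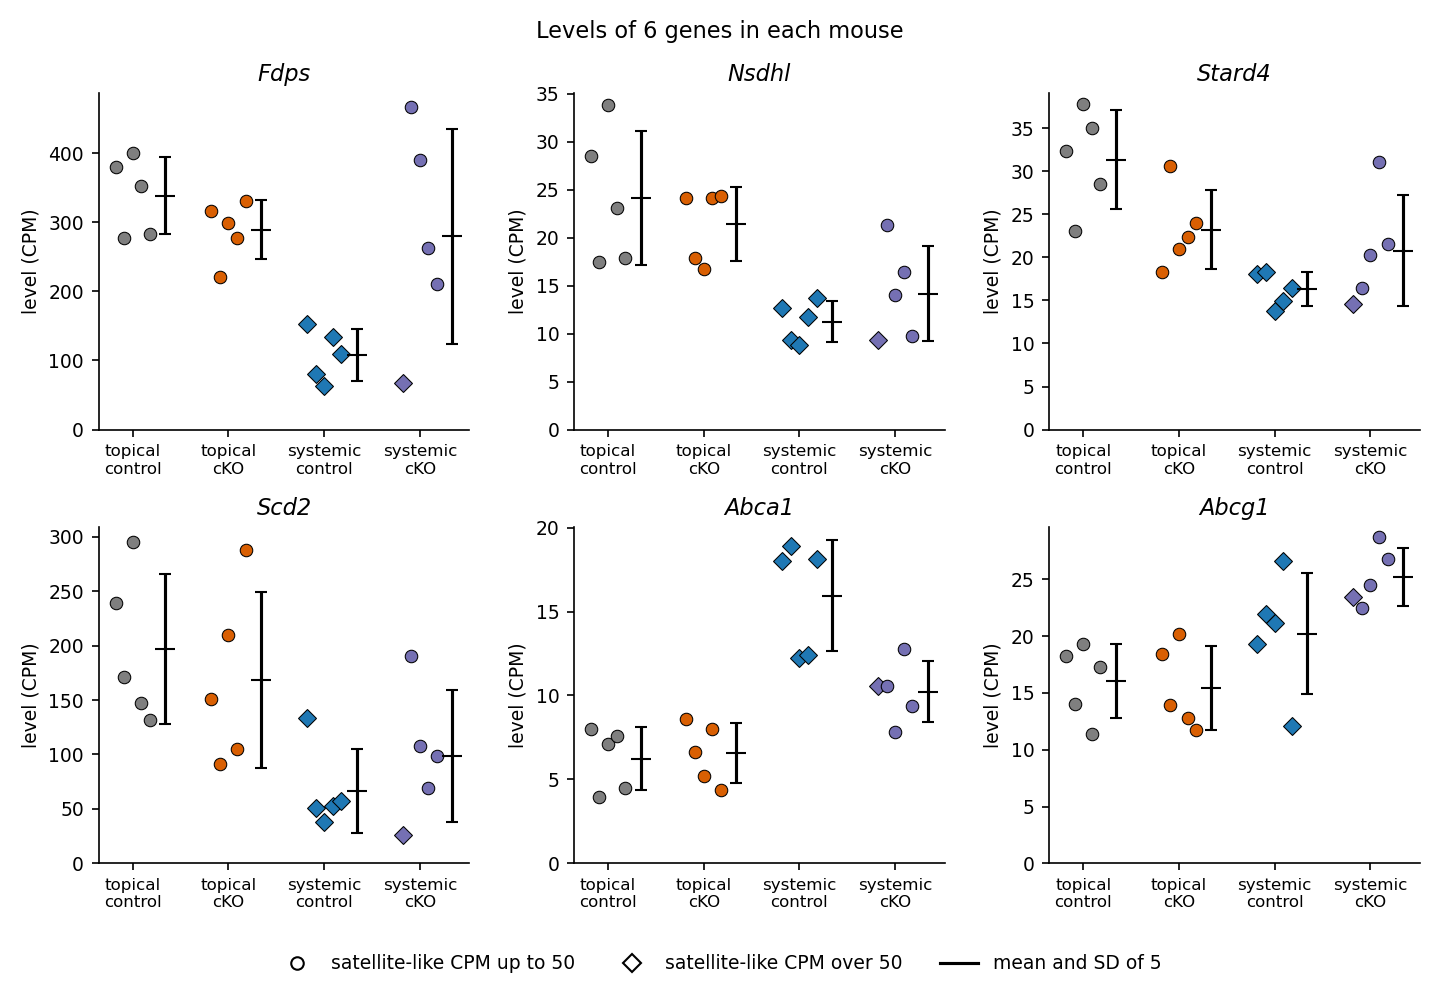
Level (CPM, y axis from 0) of Fdps, Nsdhl, Stard4, Scd2, Abca1 and Abcg1 in each mouse of the 4 groups (x axis), with mean and SD of 5; diamonds mark libraries with over 50 CPM of satellite-like transcripts. Fdps lay at 62.4 to 153 CPM in the 6 diamonds and at 211 to 466 CPM in the other 14, and Abca1 was higher in all systemic than in all topical controls.

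No overlap between the control groups was seen for 5 of 31 members (16.1%), beside 13.8% of all genes. The calls of Abca1, Fdps, Fdft1, Nsdhl, Ebp, Stard4 and Scd2 held when any 1 of the 10 control libraries was left out. The count of called members fell to 7 without systemic control 4 and to 8 without topical control 1 or systemic control 3. With the log2 sum of all 8 sebaceous markers as a covariate, 14 members were called. With that of the 7 markers without Krt79, 6 members were called, namely Abca1 higher and Fdps, Nsdhl, Stard4, Ebp and Srebf2 lower. In bulk samples, fewer sebaceous cells and less RNA of the sebaceous markers per cell, in any cell type, cannot be told apart. The part of either in the difference between routes was not tested.

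The comparison of routes in cKO mice, which shares no library with that in controls, gave 1 called member, where 9.22% of all genes were called. Abcg1, an exporter of cholesterol to lipoproteins, was higher after systemic treatment. The 6 immune cell markers moved with these groups, without overlap, at 7.44 to 12.9 CPM in topical and 15.5 to 32.2 CPM in systemic cKO mice. Cd74 made up most of that sum (5.46 to 30.3 CPM over the 20 libraries), and the leukocyte marker Ptprc reached 0.147 CPM at most. Their part in the difference in Abcg1 was not tested. It stood at 18.4, 13.9, 20.2, 12.8 and 11.8 CPM in topical cKO and 23.4, 22.5, 24.5, 28.7 and 26.8 in systemic cKO mice, without overlap (log2 fold change 0.71, SE 0.19, adjusted p = 0.0196). In controls it stood at 18.3, 13.99, 19.3, 11.4 and 17.3 CPM after topical and 19.3, 21.98, 21.1, 26.6 and 12.1 after systemic treatment, with overlap (log2 fold change 0.33, SE 0.19, adjusted p = 0.236).

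Of the 13 members called in controls, 12 had the same sign in cKO mice and 0 were called there. The median over the 31 members was -0.16 in cKO mice, beside -0.013 over all genes. Leaving out 1 library placed it between -0.32 (without systemic cKO 4) and -0.059 (without systemic cKO 2). In edgeR's test, 12 of 31 members, beside 2865 of 12424 genes, had an unadjusted p under 0.05. With all 8 sebaceous markers as a covariate the members' median was -0.18, and with the 7 without Krt79 it was 0.063. The ranges of 3 members (9.68%) did not overlap, beside 7.39% of all genes: Abcg1 and Sc5d, a late desaturase of the sterol arm, were higher in all systemic cKO mice, and Srebf2 was lower. The call of Abcg1 was lost when topical cKO 5, topical cKO 7 or systemic cKO 6 was left out, at an adjusted p of up to 0.0636. Without systemic cKO 4, the mouse with the highest sterol genes of its group, 6 members were called, and with sex as a covariate 7 were.

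Within the topical route, 0 of 31 members were called between cKO and control mice by edgeR's quasi-likelihood test or by DESeq2, where edgeR called 0.129% of all genes. Stard4 (log2 fold change -0.43, SE 0.18) and Sc5d (-0.37, SE 0.18) had an unadjusted p under 0.05, as had 703 of all genes, and the smallest adjusted p was 0.799. All 31 log2 fold changes were within 0.5 of 0, with SEs of 0.13 to 0.49. The median was -0.062 over the members and 0.020 over all genes. Leaving out 1 library placed the members' median between -0.16 (without topical control 7) and 0.011 (without topical control 5). With the mouse numbers as a replicate block it was 0.054. Sc5d was the 1 member (3.23%, beside 1.4% of genes) without overlap, at 62.1 to 91.4 CPM in topical control and 46.4 to 60.3 CPM in topical cKO mice.

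Within the systemic route, Fdps was higher in cKO than in control mice, and no other member passed, where 1.89% of all genes were called. The difference in Fdps (log2 fold change 1.37, SE 0.34, adjusted p = 0.0396) came with 1 overlapping library, number 2 of the cKO mice, which lay within the range of the controls. Besides Fdps, Mvk and Abca1 had an unadjusted p under 0.05, as had 1907 of all genes, with log2 fold changes of 0.71 and -0.65. The members' median was 0.20, beside -0.0045 over all genes, with 24 higher and 7 lower. It became -0.15 with the log2 level of satellite-like transcripts as a covariate and -0.30 with their level over 50 CPM as one. Leaving out 1 library placed it between 0.054 (without systemic cKO 4) and 0.33 (without systemic cKO 2). The groups overlapped for all 31 members, where 1.94% of genes did not overlap. Of the 31 genes, 20 were lowest among systemic cKO mice in number 2.

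The Fdps call held in 2 of 10 fits that left out 1 library, with an adjusted p of up to 0.132 without systemic cKO 5. Without systemic cKO 2 the fold was larger, at 1.63 on the log2 scale, and with satellite-like transcripts over 50 CPM as a covariate it was -0.67 and not called. That covariate divides the systemic libraries as the genotype does, apart from systemic cKO 2, so that only this library separates that feature from the genotype.

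For the difference in the genotype effect between the routes, edgeR's interaction test called 0 of 31 members, where 0.25% of all genes were called, and 4 of 31 members, beside 1739 of 12424 genes, had an unadjusted p under 0.05. These were Fdps (log2 difference 1.60, SE 0.48, adjusted p = 0.128), Mvk (0.95), Stard4 (0.78) and Abca1 (-0.75). DESeq2's Wald test called Fdps (adjusted p = 0.0351). Without systemic cKO 2, edgeR called Fdps, Mvk and Stard4. The same coefficient is the difference between the route effects of the genotypes, for which edgeR called 0 members with all 20 libraries.

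**Figure D3:**
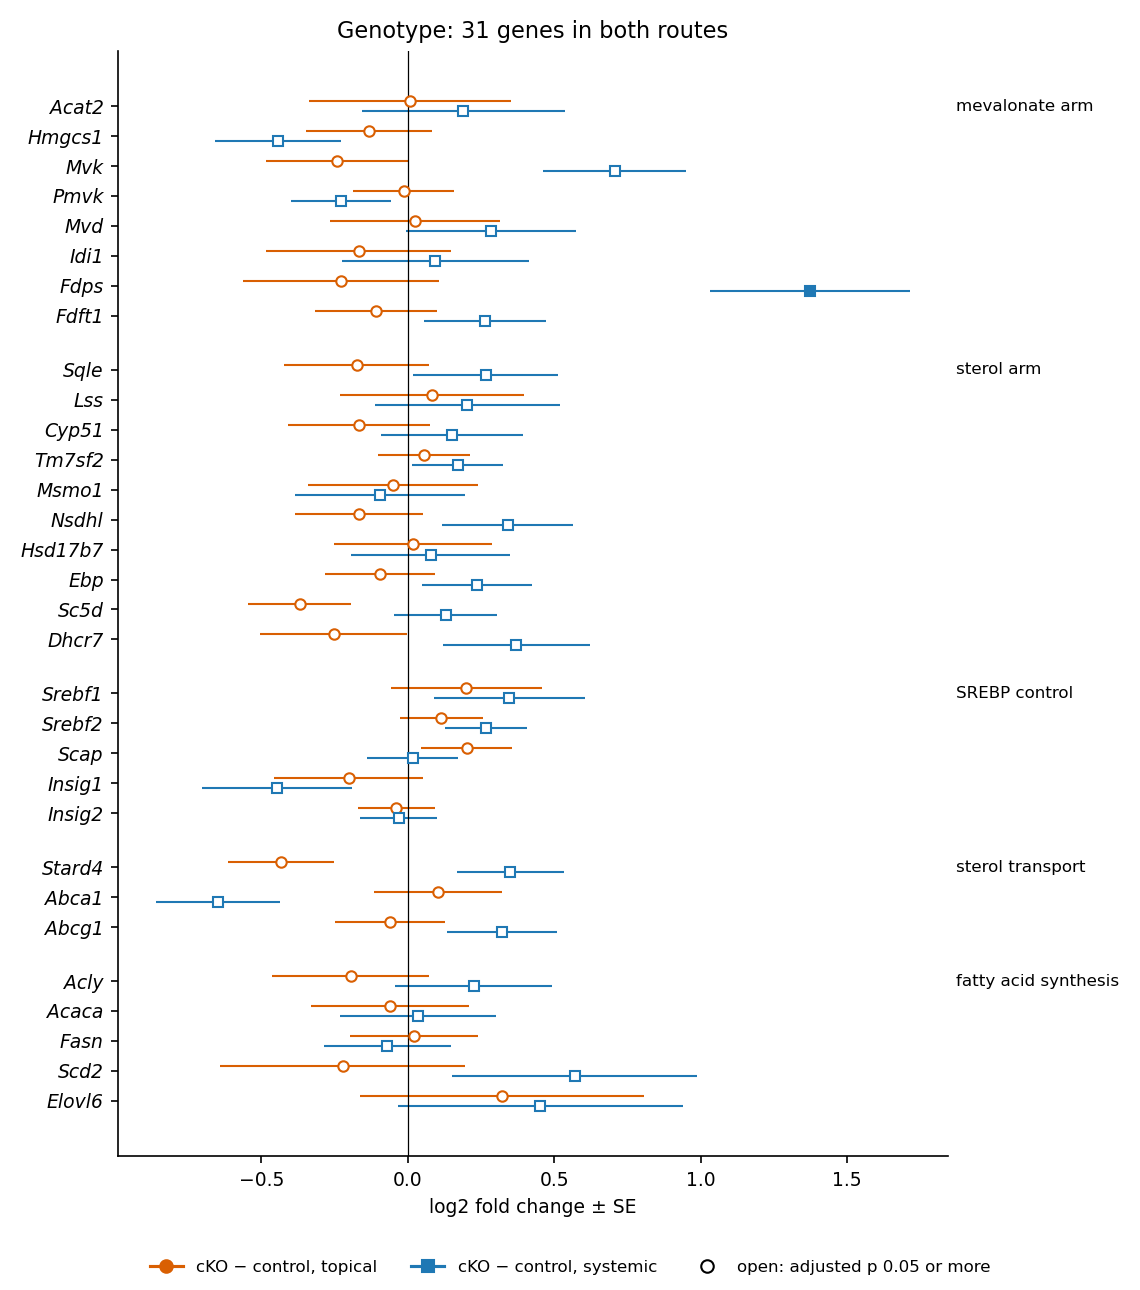
Log2 fold change of cKO against control mice (x axis, ± SE) for each of the 31 genes (y axis, grouped by role), after topical (circles) and systemic (squares) tamoxifen, 5 mice per group; filled symbols passed an adjusted p of 0.05. All topical values lie within 0.5 of 0, and Fdps after systemic treatment is the one filled symbol.

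The sterol genes varied together from mouse to mouse within the groups. The mean deviation of the 18 sterol synthesis genes from their means over 20 libraries, on the log2 scale, was 0.49, -0.10, 0.57, 0.35 and 0.010 in topical controls and 0.31, -0.064, 0.079, 0.28 and 0.28 in topical cKO mice. It was 0.090, -0.60, -0.83, -0.17 and -0.10 in systemic controls and -0.66, 0.52, -0.10, 0.020 and -0.37 in systemic cKO mice. The group means were 0.27 ± 0.29, 0.18 ± 0.16, -0.32 ± 0.38 and -0.12 ± 0.44 (SD, n = 5) in that order. Libraries above and below 0 were found in each of the 4 groups.

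**Figure D4:**
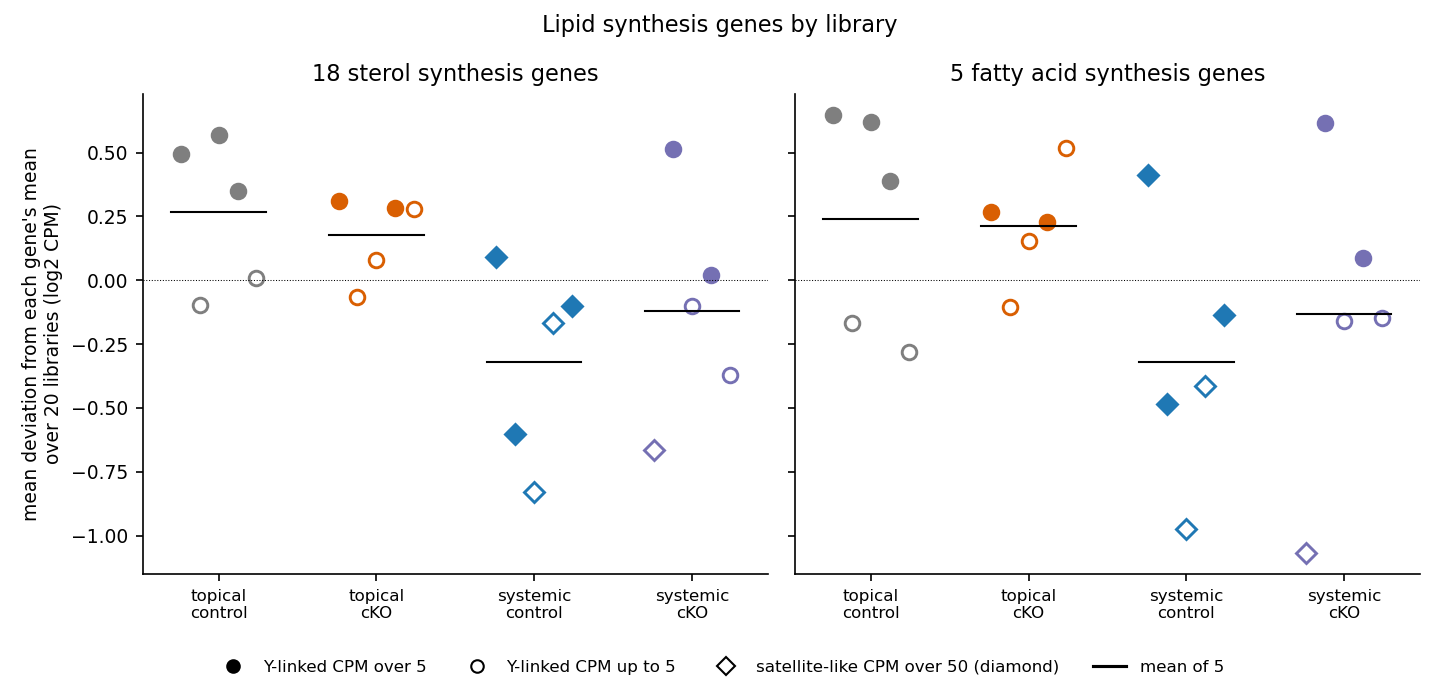
Mean deviation of 18 sterol synthesis genes (left) and 5 fatty acid synthesis genes (right) from each gene's mean over 20 libraries (y axis, log2 CPM) in each mouse of the 4 groups (x axis); lines are means of 5, diamonds mark over 50 CPM of satellite-like transcripts and filled symbols over 5 CPM of Y-linked transcripts. Systemic control 4 (-0.83) and systemic cKO 2 (-0.66) were the lowest for the sterol genes and topical control 5 (0.57) the highest.

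With the group means removed, the median Pearson's r over the 153 pairs of the 18 sterol genes was 0.59 across 20 libraries, and 96.7% of pairs were positive, beside a median of 0.00057 over all pairs of the genes tested. These points share library, depth and normalization, and r is given as a description. Idi1 and Msmo1 were closest (r = 0.95), followed by Acat2 and Mvd (0.93) and Sqle and Cyp51 (0.92). Fatty acid genes joined them: the mean r with the sterol genes was 0.74 for Elovl6, 0.70 for Acly and 0.63 for Fasn, as for the sterol genes themselves (Sqle, 0.71). The lowest means were those of Scap (0.28), Hmgcs1 (0.26), Stard4 (0.21), Tm7sf2 (0.14), Acaca (0.12), Srebf2 (-0.046), Abcg1 (-0.059) and Insig2 (-0.093). Hmgcs1 still had an r of 0.60 with Idi1 and 0.59 with Msmo1. Insig1 went most closely with Abca1 (r = 0.83). The first is known as a target of SREBP and the second of LXR.

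**Figure D5:**
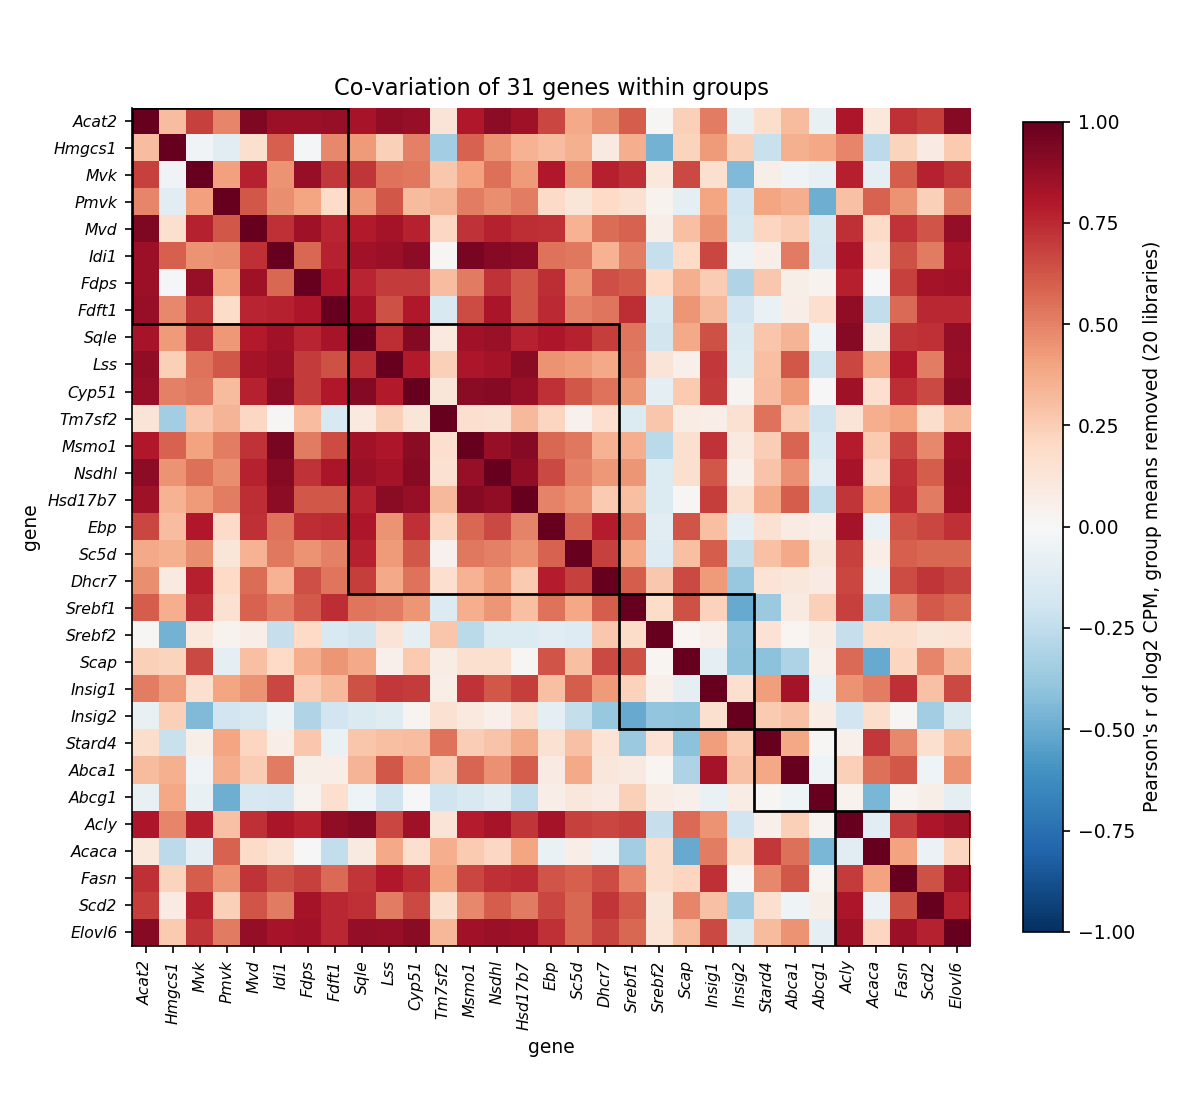
Pearson's r of log2 CPM across 20 libraries after removal of group means, for each pair of the 31 genes (both axes, in order of role, boxes around roles; red positive, blue negative). The sterol genes form a block with a median r of 0.59, and the lines of Tm7sf2, Srebf2, Insig2, Abcg1 and Acaca are paler.

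Within groups, the mean of the sterol genes had an r of 0.24 with the log2 sum of all 8 sebaceous markers and of 0.82 with that of the 7 without Krt79 (20 libraries). Its r was 0.67 with Y-linked transcripts, -0.54 with satellite-like transcripts on the log2 scale, 0.39 with the log2 library total and -0.12 with the percent of mitochondrial counts. All 8 sebaceous markers passed the filter. The 7 without Krt79 include the lipid genes Far2, Elovl3 and Scd3, and Krt79 was left out after the data were seen. The part of depth in the differences above was not tested.

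Libraries with over 5 CPM of Y-linked transcripts (male), 10 of the 20 and spread over all groups, had higher levels of 7 members and lower levels of 0, beside 0.853% of all genes called in either direction. This contrast, with the 4 groups kept in edgeR's fit, was chosen after the data were seen, and it compares libraries sorted by their Y-linked reads rather than groups of the study. The largest difference was that of Elovl6, at 236 CPM in male and 130 CPM in female libraries on average (log2 fold change 1.17, SE 0.26, adjusted p = 0.0340). Lss (0.81), Idi1 (0.77), Hsd17b7 (0.70), Insig1 (0.69), Msmo1 (0.67) and Abca1 (0.58) were called as well. Of the 31 members 29 were higher in male libraries, with a median log2 fold change of 0.36 beside 0.017 over all genes. The part of the sebaceous markers in this difference was not tested.

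Of 29 other genes of the same pathways, 28 were tested: 0 were called in the interaction and between genotypes after topical treatment, and 1 after systemic treatment, Me1, the malic enzyme that yields NADPH (log2 fold change 0.95, adjusted p = 0.0218 by edgeR), beside 1.89% of all genes. Between routes in controls, Rnf145, a sterol-responsive ubiquitin ligase, rose by 0.62 on the log2 scale, and Tmem97 (-0.96) and Lpin1 (-0.58) were lower, which makes 3 of 28 beside 18.3% of all genes. In cKO mice the elongase Elovl1 (0.98) and Erlin2 (0.51) were higher and Lpin1 (-0.95) was lower after systemic treatment, again 3 of 28, beside 9.22%. Lpin1, a phosphatidate phosphatase, was thus called lower in both genotypes.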

How the data were processed

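The authors deposited 1 table of raw read counts per gene, without normalization, for 25719 genes and 20 mice. STAR, featureCounts and the builds GRCm38 and mm10 are named per the submitters' processing notes, and their versions and settings, including strand and shared reads, are not given in the sources used here. Per the labels' protocols, libraries were of the SmartSeq II kind, from total RNA, and the design text gives 5 separate mice per group.

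All 20 libraries were fitted together in R 4.3.3 with edgeR 4.0.16: library sizes scaled by TMM, low genes removed by filterByExpr (default count minimum of 10, total minimum of 15), 1 coefficient per group and two-sided quasi-likelihood F tests. Benjamini-Hochberg adjustment covered the 12424 genes left, and calls required an adjusted p under 0.05. The 5 comparisons were cKO against control in each route, systemic against topical in each genotype, and their interaction. Levels are TMM-scaled CPM, summed lists are CPM by the library total, and co-variation used log2 CPM with a pseudocount of 0.5. A library was taken as male above a summed Y-linked level of 5 CPM. The pipeline was tested on simulated data. The design and the 31 members and gene lists were chosen with earlier results of these data known.

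Values of every mouse are given, by rule, for the 12 called members with the smallest adjusted p and for Hmgcs1, Sqle, Insig1, Srebf1, Srebf2, Abca1, Fasn and Scd2; up to 4 called genes are named from the list of other pathway genes per comparison. Gene lengths and coordinates are from GENCODE M21 (GRCm38), which held all 31 members. Alternatives were DESeq2 1.42.0 and its size factors, other filters on low counts, a replicate block made of the mouse numbers, covariates for satellite-like transcripts, mitochondrial counts, sex and (chosen after seeing the data) sebaceous markers with and without Krt79, a fit of only the libraries compared, and leaving out each library. Same-numbered mice were not taken as pairs, since nothing in the labels links them.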

Additional observations from a re-analysis of the deposited data

Results flagged for a closer look

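In 124 sets of 5 mice (31 genes in 4 groups), 7 had a highest mouse whose gap to the next was a larger part of the range than Dixon's 95% limit for 5 samples (0.71) allows, and chance alone takes about 1 in 20 sets past it. Systemic cKO 4 stood apart for 3 genes: Idi1 at 28.3 CPM with the next mouse at 12.8, Scap at 113 with the next at 77.97, and Acly at 509 with the next at 257. Systemic control 1 stood apart for another 3: Sc5d at 109 CPM with the next at 67.9, Dhcr7 at 146 with the next at 62.7, and Scd2 at 134 with the next at 56.9. Topical control 1 stood apart for Srebf1, at 270.4 CPM with the next at 177.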

How the results depend on the processing

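Unless named in this section, the count of called members under the 12 alternatives was that of the main fit. Between routes in controls, 10 members were called when all genes with a count were tested. There, 15 were called with sex as a covariate and 14 with all 8 sebaceous markers as one. With satellite-like transcripts over 50 CPM as a covariate, 0 members were called between systemic genotypes and 0 between routes in controls, where 1 of 12424 genes was called. Of the members called in the main fit, signs then turned for Fdps between systemic genotypes (-0.67). Between routes in controls they turned for Acat2 (0.66), Mvk (0.34), Fdps (0.64), Scd2 (0.57) and Elovl6 (0.83). The medians over all 31 members turned as well, to -0.30 between systemic genotypes and 0.30 between routes in controls. By construction, this covariate equals the route among controls, and systemic cKO 2 alone separates them. With satellite-like transcripts on the log2 scale, 0 members were called between systemic genotypes, 1 between routes in controls (Abca1) and 2 in cKO (Abcg1, Elovl6). A covariate for mitochondrial counts (percent) gave 3 called members between systemic genotypes (Fdps and Mvk higher, Abca1 lower) and 2 between routes in cKO (Abcg1, Abca1), and sex gave 2 (Fdps, Abca1) and 7. The fit of only the libraries compared gave 0 between systemic genotypes, and DESeq2 gave 1 in the interaction (Fdps) and 3 between routes in cKO (Abcg1, Abca1, Elovl6). The covariate of all 8 sebaceous markers gave 2 between systemic genotypes (Fdps, Mvk), and that without Krt79 gave 6 between routes in controls and, in cKO, 1 (Abca1 in place of Abcg1). The cause of these shifts was not tested. Leaving out 1 library gave 0 called members between topical genotypes in each fit, 0 to 2 between systemic genotypes, 0 to 3 in the interaction, 7 to 13 between routes in controls and 0 to 6 in cKO. Counts over all genes moved as well: DESeq2 called 42 against 16 between topical genotypes, 559 against 235 between systemic genotypes and 321 against 31 in the interaction.

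With the mouse numbers of the labels as a replicate block, 2 members were called between routes in cKO (Abcg1, Elovl6) and 14 in controls (Dhcr7 added), 1 between systemic genotypes, and 0 between topical genotypes and in the interaction. Deviations of same-numbered mice correlated at -0.36 to 0.38 over the pairs. Differently numbered mice were not compared, so these values cannot show whether the numbers pair the samples.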
